A study of Mus musculus with 8 samples.

Results

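H3K27ac HiChIP loops were examined at 6 genes of the HOXA and MEIS1 programme, Hoxa5, Hoxa7, Hoxa9, Hoxa10, Meis1 and Pbx3. A loop was counted for a gene when 1 of its 5 kb bins held the start of the canonical transcript, and loops with a bin within 150 kb of the 4 Hoxa genes were added. This gave 37 distinct loops of the 214313 distinct loops in the series, with 16 around the Hoxa genes, 20 at Meis1 and 1 at Pbx3. Start-site loops were present for 4 of the 6 genes, while Hoxa9 and Hoxa10 had none in any list.

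HPC-7 is a mouse haematopoietic progenitor line that is grown in stem cell factor and has very little CEBPA of its own. Sorted pools of cells carried a retroviral transgene for p30, the short form of CEBPA, or p42, its full-length form. The same transcript can give both, and N-terminal mutations found in leukaemia lead to p30 alone. Both forms were made as fusions whose entry into the nucleus follows 4-hydroxytamoxifen, and constructs without the fusion were made too. The names p30 HPC-7 and p42 HPC-7 stand for the fusion lines in the study's methods, where 4-hydroxytamoxifen is described for such lines in general, on the day before an experiment. Neither the labels nor the HiChIP methods name the construct or the tamoxifen. The 4 groups were untreated p30, LPS-treated p30 (100 ng/mL for 2 h), untreated p42 and LPS-treated p42 (the same dose and time), and the plots mark treated lists as LPS and untreated ones as UT. Each group had 2 replicates, or 8 libraries in all, and 1 pooled loop list per group was analysed. No list of cells without either transgene was among them.

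HOXA proteins are homeodomain transcription factors of stem and progenitor cells. MEIS and PBX proteins are TALE homeodomain factors that bind DNA together with HOX proteins, and high Hoxa9 with Meis1 is a well known feature of leukaemias with MLL fusions. H3K27ac marks active promoters and enhancers, and HiChIP enriches for chromatin contacts in which at least 1 end carries the mark, so a loop here is a pair of bins with more contacts than their distance and coverage predict.

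The lists held 80489 loops in untreated p30, 94609 in LPS-treated p30, 158233 in untreated p42 and 78591 in LPS-treated p42, from 14503330 to 18999991 modelled contacts, the total that each list's expected numbers add up from. Because list length differed by group, lists of equal size were also made by keeping, in every list, the 78591 loops of lowest q-value. Among 10 markers of haematopoietic progenitors (such as Kit, Gata2 and Runx1), 9 had a promoter loop in all 4 lists. Among other markers, a loop in any list was found for 1 of 6 of T cells (Lck), 2 of 5 of B cells, 1 of 3 of liver, 1 of 4 of fibroblasts and endothelium (Cdh5) and 3 of 5 of neutrophils and macrophages. The summed promoter loops of the last list were 6 in untreated p30, 6 in LPS-treated p30, 22 in untreated p42 and 11 in LPS-treated p42, or 6, 4, 12 and 11 in lists of equal size. Those of the progenitor markers were 69, 82, 149 and 87, or 69, 70, 95 and 87 at equal size, and the part of either in the values that follow was not tested. With 1 pooled list per group there was no replicate spread, so no p-values are given. Intervals cover counting error only, for contacts from which the authors had removed PCR duplicates, and each difference is one between these lists.

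The Hoxa5 promoter is printed because 4 of the 6 start-site loops of the Hoxa genes end in its bin, and the Hoxa7 promoter because it held 1 of the searched motifs. Both are the 250 bases before the canonical start on the minus strand of GRCm39, at chr6:52181568-52181817 for Hoxa5 and chr6:52194486-52194735 for Hoxa7. Capitals mark the motif match.
Hoxa5: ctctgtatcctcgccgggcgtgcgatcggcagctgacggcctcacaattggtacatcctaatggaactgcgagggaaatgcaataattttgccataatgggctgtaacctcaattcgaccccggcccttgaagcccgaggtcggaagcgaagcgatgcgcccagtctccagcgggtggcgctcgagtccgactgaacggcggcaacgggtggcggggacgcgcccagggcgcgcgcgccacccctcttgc
Hoxa7: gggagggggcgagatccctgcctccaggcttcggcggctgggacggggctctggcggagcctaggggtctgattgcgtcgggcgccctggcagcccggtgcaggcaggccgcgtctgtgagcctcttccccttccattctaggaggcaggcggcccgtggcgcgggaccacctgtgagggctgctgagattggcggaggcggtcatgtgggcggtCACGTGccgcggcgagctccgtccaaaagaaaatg

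The letters TTGCNNAA (CEBP), TGANTCA (AP-1), TGATGNAA (CEBP and ATF composite), TGATTNAT (PBX with HOX), TGACAG (MEIS) and CACGTG (E-box) were searched on both strands from 250 bases before to 50 bases after each start. The E-box in the Hoxa7 promoter starts at position -35, and 7.82% of the promoters of all 21757 protein-coding genes held these letters. The Hoxa10 promoter had a CEBP match across its start site, at position -6, as 10.7% of all promoters did. No other match to these 6 motifs was found in the promoters of Hoxa5, Hoxa9, Meis1 or Pbx3.

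The shared distal partner of the Hoxa genes was the bin chr6:51855001-51860000, inside the Skap2 gene, which codes for an adaptor protein of the Src kinase pathway. It is shown by its CEBP matches because it was in the single Hoxa loop present in all 4 lists. It held 4 such matches, and 16.6% of the 64985 bins flagged as H3K27ac peaks held as many or more. The 2 matches that no annotated exon overlaps are given on the plus strand with 11 bases on each side and the match in capitals, at chr6:51858504-51858533 and chr6:51859470-51859499.
Skap2 bin, first match: cacagacttgtTTTTGCAAgtggacagggt
Skap2 bin, second match: aggtgaaaaccTTACGCAAcccatccgtca

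Hoxa5, a homeodomain gene in the middle of the HOXA cluster (chr6:52178734-52181567, minus strand, ENSMUSG00000038253.7), had fewer loops in the p42 lists than in the p30 lists, while most genes had more in p42 untreated. It had 4 promoter loops in untreated p30, 4 in LPS-treated p30, 2 in untreated p42 and 1 in LPS-treated p42. Those loops held 48, 43, 20 and 8 contacts in the same order. The number of listed loops was thus lower in p42 than in p30 with both treatments. Several partners were adjacent bins, and with adjacent bin pairs merged Hoxa5 had 2, 2, 2 and 1 loops, which leaves no untreated difference. In the untreated lists only 8.26% of 10145 genes with a loop in either list were lower in p42 and 81.9% were higher. With LPS 58.7% of 9150 genes were lower in p42, so the direction at Hoxa5 was there the usual one. Such shares are over the genes with a loop in either of the lists compared. In lists of equal size Hoxa5 had 4, 4, 1 and 1 loops, beside 37.7% of genes lower in untreated p42 than in untreated p30 and 46.8% lower with LPS.

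Hoxa7 (chr6:52191471-52198834, ENSMUSG00000038236.9), Hoxa9 (chr6:52200080-52208069, ENSMUSG00000038227.16) and Hoxa10 (chr6:52208164-52217834, ENSMUSG00000000938.13) follow on the same strand. The Hoxa7 start-site bin, which also holds the canonical start of Hoxa3, had 1 loop each in untreated p30, LPS-treated p30 and untreated p42 and none in LPS-treated p42. The loop had 11 contacts in untreated p30, 11 in LPS-treated p30 and 9 in untreated p42. It was not the same loop throughout, since the untreated p30 loop ended in the Skap2 bin at chr6:51850001-51855000 and the other 2 in the next bin. Hoxa9, which is needed for the growth of many leukaemias, and Hoxa10, its neighbour in the cluster, had no loop at the canonical start in any list, as was the case for 51.6% of all protein-coding genes. Their start-site bins were in no listed loop, so their coverage is not given by these lists and it cannot be told from them whether these bins carry the mark. All listed loops span at least 10 kb, and contacts within the cluster over shorter distances were not listed.

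**Figure D1:**
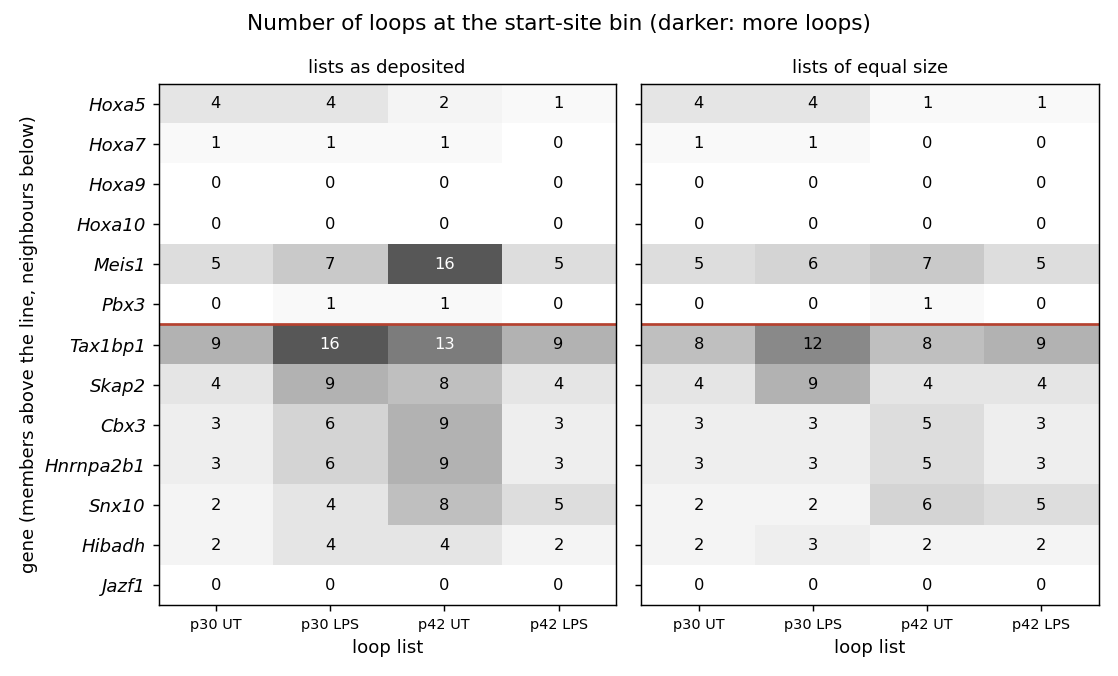
Number of listed loops at the start-site bin of each of the 6 genes (above the line) and of 7 neighbours of the Hoxa cluster (below it), by list, as deposited (left) and in lists of equal size (right). Hoxa5 goes from 4 and 4 loops in the p30 lists to 2 and 1 in the p42 lists, and Meis1 from 5 in untreated p30 to 16 in untreated p42, or 7 at equal size.

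Within 150 kb of the 4 Hoxa genes there were 14 loops in untreated p30, 12 in LPS-treated p30, 8 in untreated p42 and 1 in LPS-treated p42. Every one of the 16 distinct loops was in at least 1 p30 list, 8 were in a p42 list, and no loop was found in the p42 lists alone. Lists of equal size held 14, 11, 1 and 1 of them. In a window of 250 kb the p42 share of the untreated loops was 51.9%, against 36.4% here. Of the 14 loops in untreated p30, 6 were also in untreated p42, while 53.9% of the 5404 untreated p30 loops of 190 kb or more were. Of the 12 loops in LPS-treated p30, 1 was also in LPS-treated p42, beside 37.7% of the 5119 loops of that length. In the other direction, 6 of the 8 untreated p42 loops were also in untreated p30, beside 30.3% of the 9609 of that length. The 1 loop in LPS-treated p42 was also in LPS-treated p30, beside 42.5% of the 4537 of that length. The 16 loops overlap in their bins and are not independent of each other.

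All 16 loops were long, from 195 to 635 kb, and each had 7 to 15 contacts where 1.07 to 1.57 were expected. Of these, 12 joined the cluster to a bin inside the Skap2 gene and 1 to the bin just before its start site. Another 2 ended at Snx10, a sorting nexin gene, and 1 joined the far side of the cluster to a bin inside Jazf1, a zinc finger gene. No loop had both bins inside the window, so the listed contacts of the cluster all left it.

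**Figure D2:**
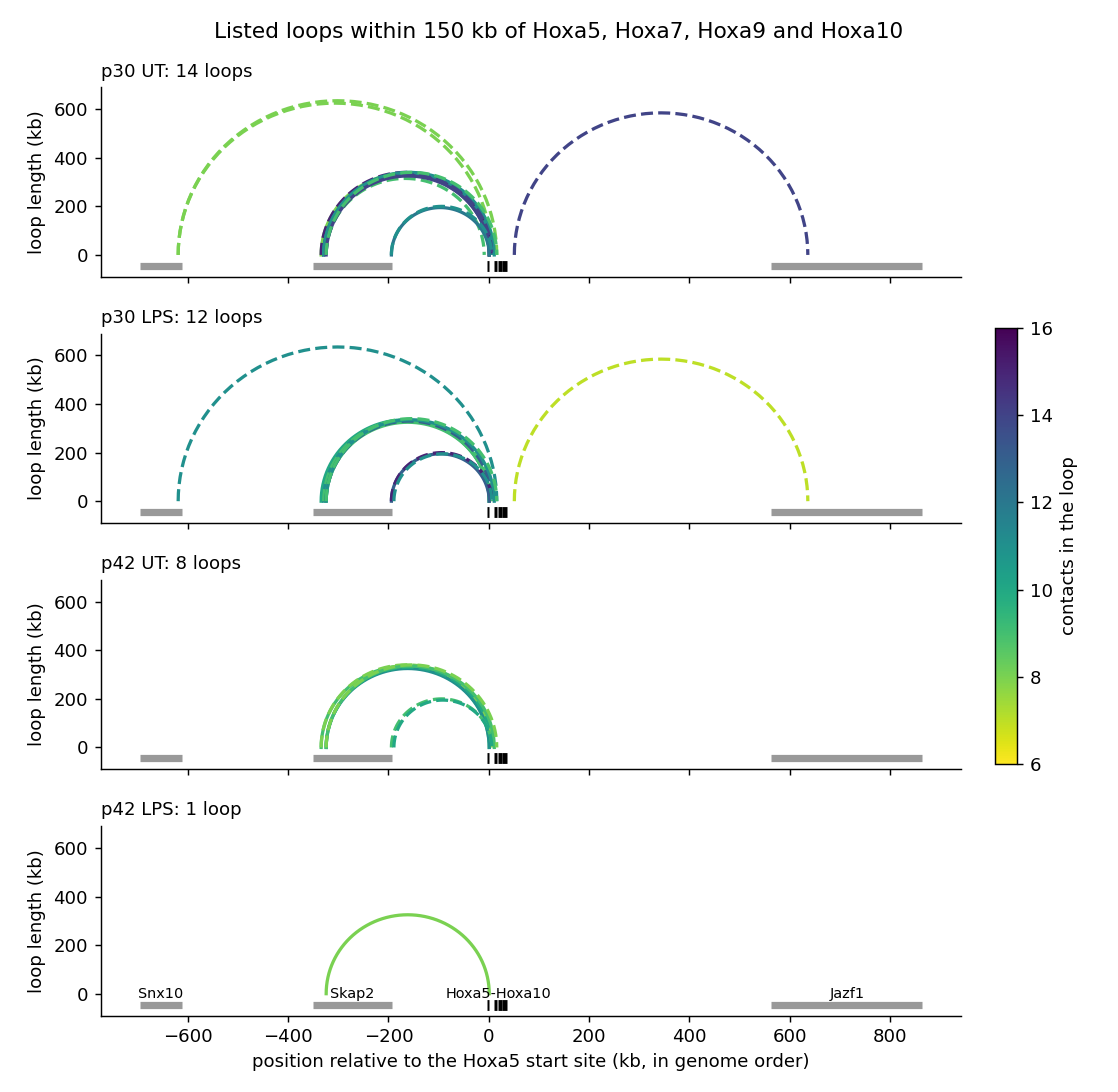
Loops with a bin within 150 kb of Hoxa5, Hoxa7, Hoxa9 and Hoxa10 (black bars) in each list, drawn as arcs whose height is the loop length in kb and whose colour is the number of contacts, against the position relative to the Hoxa5 start site in kb. Solid arcs have a Hoxa5 or Hoxa7 start site in a bin and dashed arcs have none, and the arcs thin out from 14 in untreated p30 to 1 in LPS-treated p42.

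The loop between the Hoxa5 bin and chr6:51855001-51860000, 325 kb away, was in all 4 lists. It had 14 contacts in untreated p30, 9 in LPS-treated p30, 11 in untreated p42 and 8 in LPS-treated p42, which was 10.8, 7.16, 8.64 and 6.47 times the expected number. The p42 value was below the p30 value with both treatments, but the p42 share of the contacts was 44% (95% Wilson interval 26.7 to 62.9) untreated and 47.1% (26.2 to 69.0) with LPS. The share by modelled contacts is 51.4% untreated and 52.2% with LPS, inside both intervals, so no difference was detectable at this depth.

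The other loops of Hoxa5 went to chr6:51845001-51850000 (8, 10 and 9 contacts in untreated p30, LPS-treated p30 and untreated p42), to chr6:51850001-51855000 (14 and 11 contacts in the p30 lists) and to chr6:51985001-51990000, which holds the start site of Skap2 (12 and 13 contacts in the p30 lists). The last 2 were in both p30 lists and in neither p42 list. Hoxa6, the next gene of the cluster, was joined to the same 4 partners, to the bin at Snx10 and to the bin just before the Skap2 start, with 5, 4, 4 and 0 loops in untreated p30, LPS-treated p30, untreated p42 and LPS-treated p42. Its loop with the Skap2 start-site bin had 11, 15 and 9 contacts in the first 3 lists and was not listed in LPS-treated p42.

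Further loops of the p30 lists alone came from other parts of the locus. A bin at the 3′ part of Snx10, chr6:51560001-51565000, which was not flagged as a peak, was joined to chr6:52195001-52200000, where another Hoxa7 transcript starts, with 8 contacts in untreated p30 and 11 in LPS-treated p30. At 635 kb this was the farthest partner at the locus. The bin chr6:52230001-52235000, which overlaps an exon of Hoxa13 and was also no peak, was joined to a bin inside Jazf1, at chr6:52815001-52820000, with 14 contacts in untreated p30 and 7 in LPS-treated p30.

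Summed over the 6 loops of the Hoxa window that were in both untreated lists, p30 had 71 contacts and p42 had 55. The p42 share was 43.7% (35.3 to 52.4). The shares by modelled contacts, 51.4%, and by expected contacts, 49.8%, lay inside this interval, and the share by the mean coverage of peak bins, 54.8%, lay above it. By contacts per modelled contact, 1 of the 6 loops was lower in p42 by 1.5-fold or more, beside 2.88% of 59069 shared loops, and none was higher. That loop joined the Hoxa6 bin to chr6:51845001-51850000 and had 15 contacts in untreated p30 and 8 in untreated p42, a p42 share of 34.8% (18.8 to 55.1).

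A pair that is not listed may still have contacts, but fewer than the number that would have listed it. The expected contacts of an unlisted pair follow from its distance and the coverage of its bins, and the 16 pairs could have held at most 6 to 8 contacts where they were unlisted and a bound could be given. This check was added after the lists were seen. At the 12 pairs between Skap2 and the cluster, untreated p30 listed 128 contacts and untreated p42 listed 64, and untreated p42 could have held 99 at most. The p42 share was then at most 43.6% (37.3 to 50.1), beside 51.4% by modelled contacts and 54.8% by the mean coverage of peak bins. With LPS, p30 listed 100 contacts and p42 listed 8, and p42 could have held 88, a share of at most 46.8% (39.8 to 53.9), with 52.2% by modelled contacts and 46.4% by coverage. The untreated interval lay below both of its comparison shares, but the p42 share of expected contacts, 49.8% at the 6 loops in both lists, lay inside it. The LPS interval held both shares. In the LPS-treated p42 list the bound rests for 9 of the 12 pairs on coverage assumed from the other lists. The pairs were chosen for being listed, mostly in p30, so they are no neutral sample of pairs. That choice by itself lowers the p42 share, so neither interval can show a difference between p30 and p42.

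The Skap2 bins had loops to other regions in all 4 lists. The 4 bins inside Skap2 had 11 loops to the Hoxa window in untreated p30, 9 in LPS-treated p30, 7 in untreated p42 and 1 in LPS-treated p42, and 9, 15, 15 and 12 loops to other bins. The loops to the Hoxa window thus made up 55.0% of their loops in untreated p30 and 7.69% in LPS-treated p42. These bins were picked because listed Hoxa loops, mostly of p30, end in them, so the shares are partly set by that choice. All the other loops of these bins were shorter than 190 kb. In lists of equal size the same bins had 11, 9, 1 and 1 loops to the Hoxa window and 8, 15, 8 and 12 others.

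Coverage relative to peak bins was lower in p42 than in p30 at most bins of the Hoxa loops, by less than 1.5-fold in all but 2 bins on that scale. Set per modelled contact instead, 7 of 9 bins untreated and 5 of 5 with LPS had a ratio below 1. Of all peak bins on this scale, 10.7% were higher and 0.74% lower in p42 by 1.5-fold or more untreated. With LPS 0.911% were higher and 16.8% lower. How many of all peak bins had a ratio below 1 was not counted. The Hoxa5 start-site bin had 1856 reads in untreated p30, 1590 in LPS-treated p30, 1738 in untreated p42 and 1227 in LPS-treated p42. Relative to the mean of peak bins in each list this was 0.771, 0.710, 0.597 and 0.633, a ratio of p42 to p30 of 0.774 untreated and 0.891 with LPS. Of all peak bins in both lists, 13.4% had a ratio as low or lower untreated and 25.1% with LPS. The Hoxa7 bin had 2545 reads in untreated p30, 1823 in LPS-treated p30 and 2481 in untreated p42, a relative coverage of 1.06, 0.814 and 0.852.

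The most covered bin of the locus was the shared Skap2 partner at chr6:51855001-51860000, with a relative coverage of 3.69 in untreated p30, 3.70 in LPS-treated p30, 2.90 in untreated p42 and 2.36 in LPS-treated p42. Its ratio of p42 to p30 was 0.787 untreated and 0.638 with LPS. The bin just before the Skap2 start, chr6:51990001-51995000, went from 1.79 in untreated p30 to 2.99 in LPS-treated p30, a ratio of 1.67, and was at 1.92 and 1.56 in untreated p42 and LPS-treated p42. Only 2.28% of peak bins rose by 1.5-fold or more with LPS in p30. With LPS, 2 of the 5 measured bins of the locus, these 2, were lower in p42 than in p30 by 1.5-fold or more, beside 2.88% of 36445 peak bins. Per modelled contact 4 of the 5 were, beside 16.8% of peak bins. No bin of the locus passed 1.5-fold in the untreated comparison on either scale, where 7 of 9 measured bins had a ratio below 1. Relative to the mean of peak bins, the median untreated ratio over all 41107 peak bins was 0.977.

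**Figure D3:**
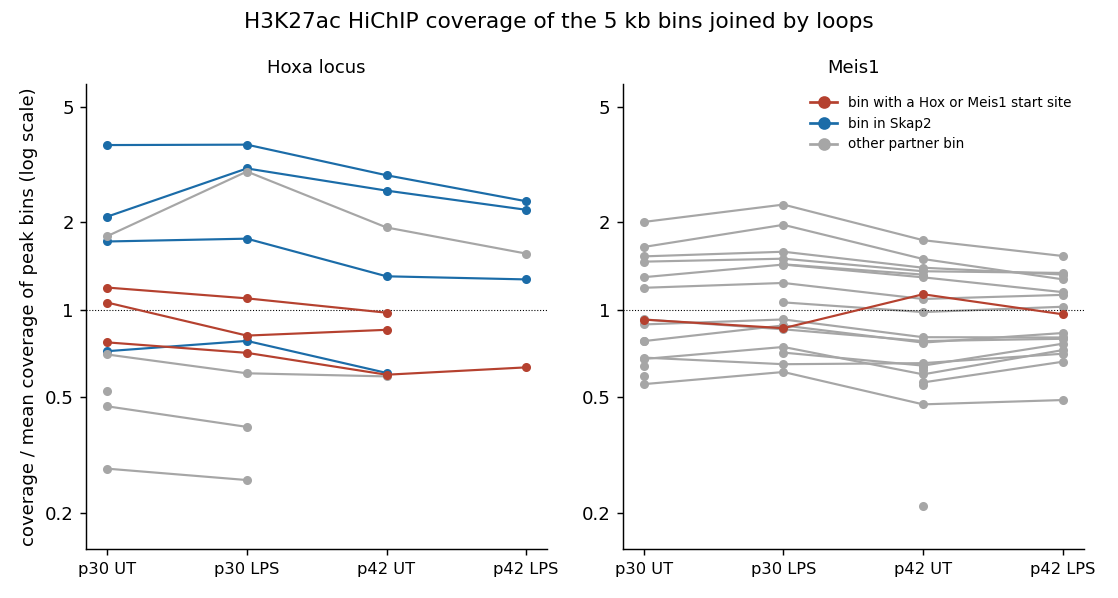
Coverage of the bins joined by loops at the Hoxa locus (left, without the bin at Snx10) and at Meis1 (right), as a multiple of the mean coverage of peak bins in the same list, on a log scale. Each line is 1 bin, points are missing where a bin is in no loop of that list, and the Hox start-site bins lie near or under the mean while the bin in Skap2 goes from 3.69 in untreated p30 to 2.36 in LPS-treated p42.

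Most Hoxa loops of p30 were listed with and without LPS. Of the 14 loops in untreated p30, 10 were also in LPS-treated p30, beside 40.7% of the untreated p30 loops of 190 kb or more. These 10 had 115 contacts untreated and 107 with LPS. The LPS share was 48.2% (41.7 to 54.7), and the share by modelled contacts, 44.7%, lay inside the interval. By contacts per modelled contact, 3 of the 10 were higher with LPS by 1.5-fold or more, beside 17.1% of 47004 shared loops, and 1 was lower, beside 2.05%. The largest ratio, 1.70, was at the Snx10 partner (8 to 11 contacts) and the lower value at the Jazf1 partner (14 to 7 contacts). In p42, 1 of the 8 untreated loops was also listed with LPS, beside 27.7% of the 9609 untreated p42 loops of 190 kb or more.

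Promoter loops of the genes next to the Hoxa cluster went the way of most genes. Of the 7 neighbours on chromosome 6, the 6 with a loop (Tax1bp1, Skap2, Cbx3, Hnrnpa2b1, Snx10 and Hibadh) all had more promoter loops in untreated p42 than in untreated p30, as had 81.9% of genes with a loop in either list. Tax1bp1, an autophagy receptor gene, had 9 in untreated p30, 16 in LPS-treated p30, 13 in untreated p42 and 9 in LPS-treated p42. Cbx3, which codes for a heterochromatin protein, shares its bin with Hnrnpa2b1 and had 3, 6, 9 and 3. Skap2 had 4, 9, 8 and 4. In lists of equal size 3 of these 6 genes were higher in untreated p42, beside 41.7% of such genes, and none was lower. With LPS, 5 of the 6 were lower in p42 than in p30 and Snx10 was higher, with 4 and 5 loops, beside 58.7% of genes with a loop in either list lower. At equal size 3 were lower and 1 higher with LPS, beside 46.8% and 33.7%.

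Of other genes of the cluster region, Hoxa6 and Hoxa3 had promoter loops, while Hoxa2, Hoxa4, Hoxa11, Hoxa13 and Evx1 had none in any list. In the related Hoxb cluster 2 of 10 genes had a promoter loop in some list, as had 48.4% of all protein-coding genes. Hoxb4, known for expanding blood stem cells, had 1 in untreated p30 and 1 in LPS-treated p30, and Hoxb3 had 1 in LPS-treated p30. Both were without a loop in the p42 lists. Of the genes with a loop in either list, 8.26% were lower in p42 untreated and 58.7% with LPS. At equal list size the Hoxb4 loop was in untreated p30 alone.

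Meis1, a TALE homeodomain gene (chr11:18829817-18969749, minus strand, ENSMUSG00000020160.20) whose protein binds with HOXA9, had the most loops among the 6 genes. It had 5 promoter loops in untreated p30, 7 in LPS-treated p30, 16 in untreated p42 and 5 in LPS-treated p42, with 93, 86, 261 and 70 contacts. The untreated p42 list stood above the other 3, as in 81.9% of genes with a loop in either list against untreated p30. The number was lower with LPS in p42 (16 and 5), as at 87.3% of 9965 genes, and higher with LPS in p30 (5 and 7), as at 53.1% of 9327 genes. In lists of equal size Meis1 had 5, 6, 7 and 5 loops, beside 41.7% of genes higher in untreated p42, and with adjacent bin pairs merged it had 4, 4, 9 and 4. Of the genes with a loop in untreated p42, 9.82% had 16 or more.

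All 20 partners of the Meis1 start-site bin lay on 1 side, 10 to 145 kb into the gene and just past its 3′ end, and 19 of the 20 loops joined 2 peak bins. The partner chr11:18825001-18830000, 140 kb away, holds the end of the last Meis1 exon and exons of the non-coding gene 8430419K02Rik. It was in all 4 lists, and it is shown by its 2 CEBP matches outside annotated exons because its contacts were furthest above expectation in 3 of the 4 lists. The matches lie at chr11:18826054-18826083 and chr11:18826284-18826313 on the plus strand and are in capitals. The bin held 3 CEBP matches, and 34.1% of peak bins held as many or more.
Meis1 partner, first match: cgtctagcggaTTGCCCAAtatattgtttg
Meis1 partner, second match: gatggtatggtTTGCCAAAgggccaggggg

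This loop had 20 contacts in untreated p30, 12 in LPS-treated p30, 36 in untreated p42 and 24 in LPS-treated p42, which was 14.3, 8.86, 24.4 and 18.0 times the expected number. Contacts were higher in p42 than in p30 with both treatments and lower with LPS in both cell lines, by less than 1.5-fold per modelled contact. Per modelled contact the p42 value was 1.70 times the p30 value untreated and 1.83 times with LPS. Of all shared loops, 19.3% were higher in p42 by 1.5-fold or more untreated and 4.07% with LPS. The p42 share was 64.3% (51.2 to 75.5) untreated, with 51.4% by modelled contacts inside the interval, and 66.7% (50.3 to 79.8) with LPS, with 52.2% inside it. With LPS the share by the mean coverage of peak bins, 46.4%, lay below the interval, and the expected contacts of the pair were 1.35 in p30 and 1.33 in p42, so whether this difference passed counting error depended on the comparison share. Relative to peak bins the partner bin was less covered in p42, where its relative coverage was 0.472 untreated and 0.488 with LPS, than in p30, where it was 0.554 and 0.610.

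The next bin, chr11:18830001-18835000, also in the 3′ part of Meis1, had 16 contacts in untreated p30, 10 in LPS-treated p30, 22 in untreated p42 and 9 in LPS-treated p42. Its p42 share was 57.9% (42.2 to 72.1) untreated and 47.4% (27.3 to 68.3) with LPS. Of the 4 Meis1 loops in both p42 lists, this one alone was lower with LPS by 1.5-fold or more per modelled contact, beside 12.9% of 59847 shared loops.

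**Figure D4:**
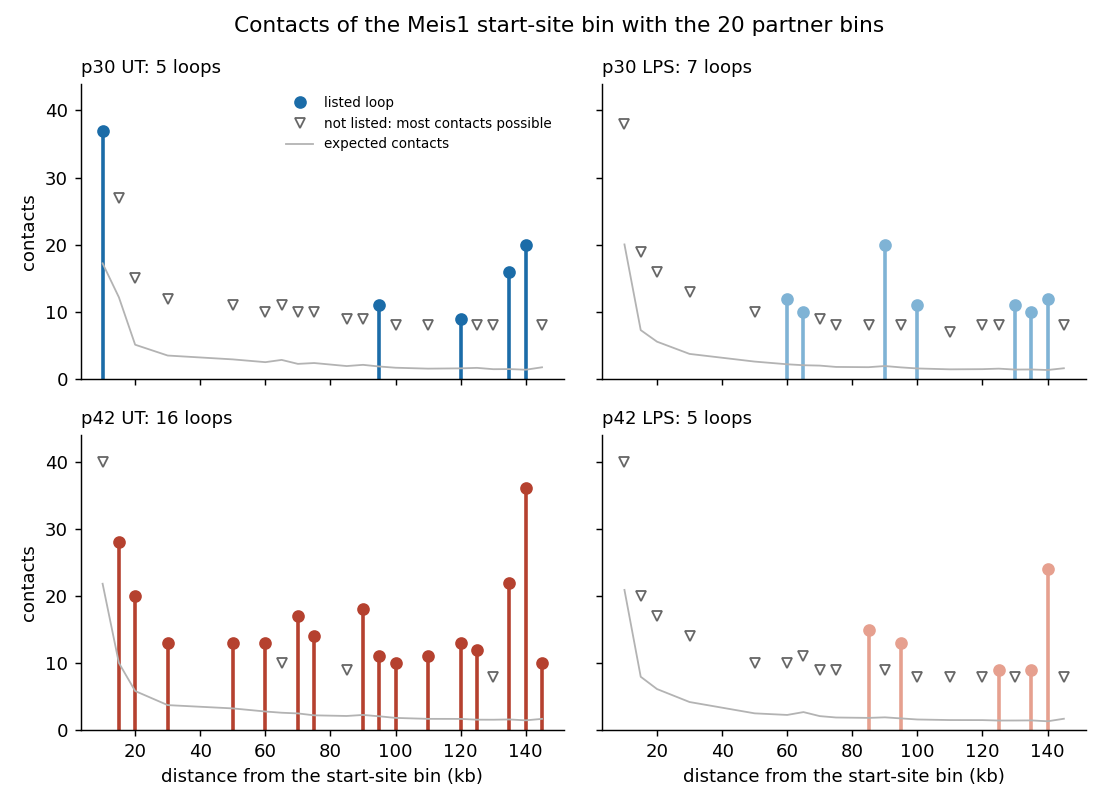
Contacts between the Meis1 start-site bin and its 20 partner bins against their distance in kb, by list. Filled points are listed loops, open triangles give the most contacts an unlisted pair could have held, the grey line gives the expected contacts, and the loop at 140 kb has 20, 12, 36 and 24 contacts in untreated p30, LPS-treated p30, untreated p42 and LPS-treated p42.

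Other Meis1 partners were shared by fewer lists. The partner chr11:18840001-18845000, 125 kb away in an intron, was in both p42 lists (12 contacts in untreated p42 and 9 in LPS-treated p42) and in neither p30 list. The partner chr11:18875001-18880000, also intronic, had 20 contacts in LPS-treated p30 and 18 in untreated p42, and chr11:18870001-18875000 had 11 in untreated p30, 11 in untreated p42 and 13 in LPS-treated p42. At 10 kb the nearest partner, chr11:18955001-18960000, was listed in untreated p30 alone with 37 contacts, 2.15 times the expected number. At 145 kb the farthest, chr11:18820001-18825000, was listed in untreated p42 alone with 10 contacts. Of the 20 partners, 8 were in untreated p42 alone, 1 in untreated p30 alone, 2 in LPS-treated p30 alone and 1 in LPS-treated p42 alone. Of the 16 Meis1 loops in untreated p42, 4 were also in untreated p30, beside 37.3% of all 158233 loops of that list. In LPS-treated p42, 4 of the 16 were listed too, beside 37.8%. At equal list size untreated p42 kept 7 of the 16.

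Summed over the 4 Meis1 loops in both untreated lists, p30 had 56 contacts and p42 had 82, a p42 share of 59.4% (51.1 to 67.3), with 51.4% by modelled contacts inside the interval. Over the 2 loops in both LPS lists the share was 60.0% (46.8 to 71.9), with 52.2% by modelled contacts inside the interval and 46.4% by the mean coverage of peak bins just below it. Over all 20 pairs untreated p42 listed 261 contacts and untreated p30 listed 93, but untreated p30 could have held up to 257 at the most that would leave the other pairs unlisted. For 5 of the 20 pairs this bound rests on coverage assumed from the other lists. The p42 share then lay between 50.4% and 77.9%, so the larger number of Meis1 loops in untreated p42 may or may not go with more contacts in all.

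The Meis1 start-site bin had 2223 reads in untreated p30, 1933 in LPS-treated p30, 3289 in untreated p42 and 1869 in LPS-treated p42. Relative to peak bins this was 0.924, 0.863, 1.13 and 0.964, a ratio of p42 to p30 of 1.22 untreated and of 1.12 with LPS, which turned to 0.886 per modelled contact. Of all peak bins, 83.8% untreated and 73.8% with LPS had a ratio as low or lower. At the other bins the ratio was mostly below 1, and counting the start-site bin, 15 of 16 measured bins untreated and 12 of 15 with LPS had a ratio below 1. The median ratio over all peak bins was 0.977 untreated and 1.00 with LPS. Per modelled contact the counts were 4 of 16 and 15 of 15, so the untreated direction depended on the scale. On that scale 10.7% of all peak bins were higher and 0.74% lower in p42 by 1.5-fold or more untreated. With LPS 0.911% were higher and 16.8% lower. The share of all peak bins with a ratio below 1 was not counted. With LPS 2 of these 15 bins were lower in p42 by 1.5-fold or more, at chr11:18875001-18880000 and chr11:18915001-18920000, beside 2.88% of peak bins. Per modelled contact 5 of the 15 were, beside 16.8%.

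Pbx3, a TALE gene whose protein stabilises the HOXA9 and MEIS1 complex (chr2:34061469-34263154, minus strand, ENSMUSG00000038718.17), had a single loop, over 10 kb, from its start site to the intronic bin chr2:34250001-34255000. It had 35 contacts in LPS-treated p30 and 63 in untreated p42, 2.09 and 2.62 times the expected number, and was not listed in untreated p30 or LPS-treated p42. The relative coverage of the start-site bin was 0.574 in LPS-treated p30 and 0.626 in untreated p42, and that of the partner was 1.24 and 1.48. The pair could have held up to 63 contacts in untreated p30 and 58 in LPS-treated p42, on coverage assumed from the other lists, so a difference between the lists was not detectable. At equal list size the loop was in untreated p42 alone.

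Genes were also ranked by how near their loop numbers over the 4 lists came to those of these genes on other chromosomes. Copa and Ncstn, which share a bin on chromosome 1, had the same 5, 7, 16 and 5 loops as Meis1, and Dctpp1 had 6, 7, 16 and 5. The numbers of Pbx3 were shared by Sarm1, Vtn and Eif2ak3, 3 of 153 such genes. Hoxa9 was 1 of 11231 genes without a loop in any list, too many to rank.

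Among other TALE genes, Tgif1, Pknox1, Pbx2 and Tgif2 had promoter loops, while Pbx4, Meis2, Meis3 and Pknox2 had none. Tgif1, a repressor of TGF-beta signalling, had 11 in untreated p30, 11 in LPS-treated p30, 22 in untreated p42 and 10 in LPS-treated p42. Pknox1, a partner of PBX proteins, had 8, 12, 19 and 8, and Pbx2 had 8, 15, 14 and 6. Tgif2 had 1, 5, 3 and 1. The 4 with loops were higher in p42 than in p30 untreated and lower with LPS, as were 81.9% and 58.7% of the genes with a loop in either list. At equal list size 2 of the 4 were higher and 1 lower untreated, beside 41.7% and 37.7% of such genes, and none was higher and 3 were lower with LPS, beside 33.7% and 46.8%.

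All 18 chromatin regulators known to act on the Hoxa cluster were looped at the promoter in some list, as were 48.4% of all protein-coding genes. Of 16 with a loop in an untreated list, 13 were higher and 2 lower in p42, and of 17 with a loop in an LPS list, 3 were higher and 11 lower. Over the genes with a loop in either list 81.9% were higher and 8.26% lower untreated, and 23.6% were higher and 58.7% lower with LPS. Dot1l, the H3K79 methyltransferase, had 14 loops in untreated p30, 18 in LPS-treated p30, 13 in untreated p42 and 12 in LPS-treated p42, Setd2, an H3K36 methyltransferase, had 9, 17, 16 and 8, Aff4, of the super elongation complex, had 8, 17, 14 and 10, and its relative Aff1 had 8, 8, 17 and 12. In lists of equal size 6 of 15 were higher and 7 lower in p42 untreated, beside 41.7% and 37.7% of genes with a loop in either list, and 3 of 17 were higher and 10 lower with LPS, beside 33.7% and 46.8%.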

How the data were processed

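The deposited lists hold FitHiChIP loops between 5 kb bins, 1 list per group, made by the authors from 2 replicates (how these were pooled is not given in the sources used here). Per the submitters' notes and the methods, reads were aligned to mm39 with BWA 0.7.17, parsed and deduplicated with pairtools, and loops kept at a q-value under 0.01. The authors' contact count, bin coverage (read count), coverage bias (ratio to the mean of peak or other bins), expected count, contact probability (fraction), peak flag (other) and q-value were used as deposited. Start sites are canonical transcripts of GENCODE M39 on GRCm39, whose chromosome lengths fit all bins. The promoter table supplied was on another build, so sequences were read from GRCm39.

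Loops were shared when both bins were identical. Modelled contacts are the expected count over the contact probability. Unlisted pairs were bounded by refitting the expected count on distance and both biases and finding the smallest count that would pass the list's largest p-value; for bins in no loop of a list, coverage was taken as 2 times the highest relative coverage in the others. Shares have 95% Wilson intervals. A change is 1 or more promoter loops, or 1.5-fold in contacts or coverage. The bounds and intervals were tested on simulated data. Python 3.11.15, pandas 2.3.3 and scipy 1.17.1 were used. Named were all 6 genes, in other gene lists the 4 with most promoter loops, and as partners up to 5 per gene with most contacts, the farthest and those in both lists of 1 isoform alone; others named were chosen after their values were seen. Members and lists were chosen with earlier results of these data known. Alternatives were another list size, q-value, distance, window, start-site definition, merging of adjacent bin pairs, comparison share, coverage scale and fold. Some genes of these lists are not reported here.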

Additional observations from a re-analysis of the deposited data

Results flagged for a closer look

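The number of Meis1 promoter loops moved in opposite directions with LPS in the 2 cell lines, by 2 more loops in p30 (5 to 7) and 11 fewer in p42 (16 to 5), a gap of 13 loops. Reduced to equal size, the p30 lists held 5 untreated and 6 with LPS and the p42 lists 7 and 5, and with adjacent bin pairs merged there were 4 and 4 in p30 and 9 and 4 in p42. The single Pbx3 loop did so too, listed with LPS in p30 and without it in p42, a gap of 2 loops, but in lists of equal size it was absent from both p30 lists and the opposite movement was gone. With 1 list per group neither difference between the cell lines was tested, and of the genes with a loop in either list 87.3% lost promoter loops with LPS in p42, while 53.1% gained them in p30.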

How the results depend on the processing

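No paired analysis was possible because each list pools both replicates, and for the same reason no replicate could be left out. No loop had both bins inside the window, so that alternative gave no value. Of 88 alternatives to 29 results, 62 kept the value within its interval or a count within 1.5 times, 22 moved it and 4 reversed it. The p42 share of Hoxa window loops, 36.4% untreated and 7.69% with LPS, was 51.9% and 35.6% in a 250 kb window, 6.67% untreated at equal size and 0% with LPS at a q-value under 0.001, where the Hoxa start sites also went to 0%. The median contacts over expected, 8.44 in untreated p30 (Hoxa) and 6.11 in untreated p42 (Meis1), was 10.8 and 19.1 over the loops in all 4 lists, 1 at Hoxa and 2 at Meis1. With the mean coverage of peak bins as comparison, the p42 share at Hoxa with LPS lay 0.65 percentage points above the comparison share, where against modelled contacts the difference was -5.13, and both comparison shares lay inside its interval. The coverage ratios depended on the scale. Relative to modelled contacts and as deposited they were 0.886 and 0.936 for Hoxa5 untreated, 0.707 and 0.772 with LPS, 0.922 and 0.975 for Hoxa7 untreated, 1.40 and 1.48 for Meis1 untreated, and 0.886 and 0.967 for Meis1 with LPS, where the direction turned from 1.12. Relative to peak bins, no bin was lower in p42 by 2-fold with LPS (0 at Hoxa, 0 at Meis1). Per modelled contact, a scale added after seeing the data for these counts, 4 Hoxa and 5 Meis1 bins were lower by 1.5-fold and 1 Hoxa bin by 2-fold. With adjacent bin pairs merged, the Hoxa start sites had 2 loops each in untreated p30 and p42, a p42 share of 50%, and Meis1 had 4 in each LPS list. With unlisted p42 pairs at their most, an alternative chosen after seeing the data, the p42 share of contacts was 43.6% untreated and 46.8% with LPS at Skap2 and the Hoxa cluster, and 75.1% at Meis1 with LPS. With unlisted p30 pairs at their most it was 50.4% untreated and 22.2% with LPS at Meis1. Single long loops rest on 7 to 15 contacts, which limits their precision. The causes were not tested.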
